A study of Homo sapiens with 3 samples.

Results

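The genes described here are the interleukin 1 (IL1) family ligands IL1A, IL1B, IL18 and IL33, the receptor antagonist IL1RN, the receptor chains IL1R1 and IL1RAP, and the cytokines IL32 and IL24. They were chosen by name: every probe set whose platform annotation gives 1 of these 9 symbols was taken, which gave 17 probe sets of the 41097 with 1 gene symbol and 9 of 19775 genes. Total RNA came from HepG2, by its label a line from a human liver tumour, grown with fetal bovine serum and stably transfected with a vector for the Hsp27 open reading frame (Hsp27 ORF vector), a vector for a short hairpin RNA (Hsp27 shRNA vector) or a control vector. The samples are titled IRES2-HSP27, HSP27-SiRNA and EGFP-NC, and nothing in the labels says whether a transfectant was 1 clone or a pool. Each group was 1 array, so the values carry no replicate error, no test between conditions was possible and every ratio describes the arrays.

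Interleukin 1 alpha and beta bind the receptor IL1R1, which signals through the adaptor MYD88 and the IRAK kinases once the accessory chain IL1RAP has joined it, and IL1RN occupies the receptor without signalling. IL18 and IL33 use related receptor pairs, and IL1B and IL18 are made as precursors that caspase 1 cuts in the inflammasome. IL32 is a cytokine unrelated in sequence to the IL1 family, and IL24 belongs to the IL20 subfamily. In liver, interleukin 1 alpha and beta are known for driving the acute phase response and NF-kB target genes.

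Of the 17 probe sets, 10 exceeded the median of the pooled signals on 1 or more arrays (5.93 on the log2 scale, 60.8 as linear signal). This median served as the floor: lower signals were set to it before a log2 ratio was taken, and a probe set below it on both arrays has no ratio. The 10 belonged to 7 genes, and 6 of them were above the floor on all 3 arrays. IL33 and IL24 were below the floor on every array. Only IL18 and IL32 came up to the 75th percentile of the pooled signals (8.63) on any array, and both did so on all 3.

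**Figure D1:**
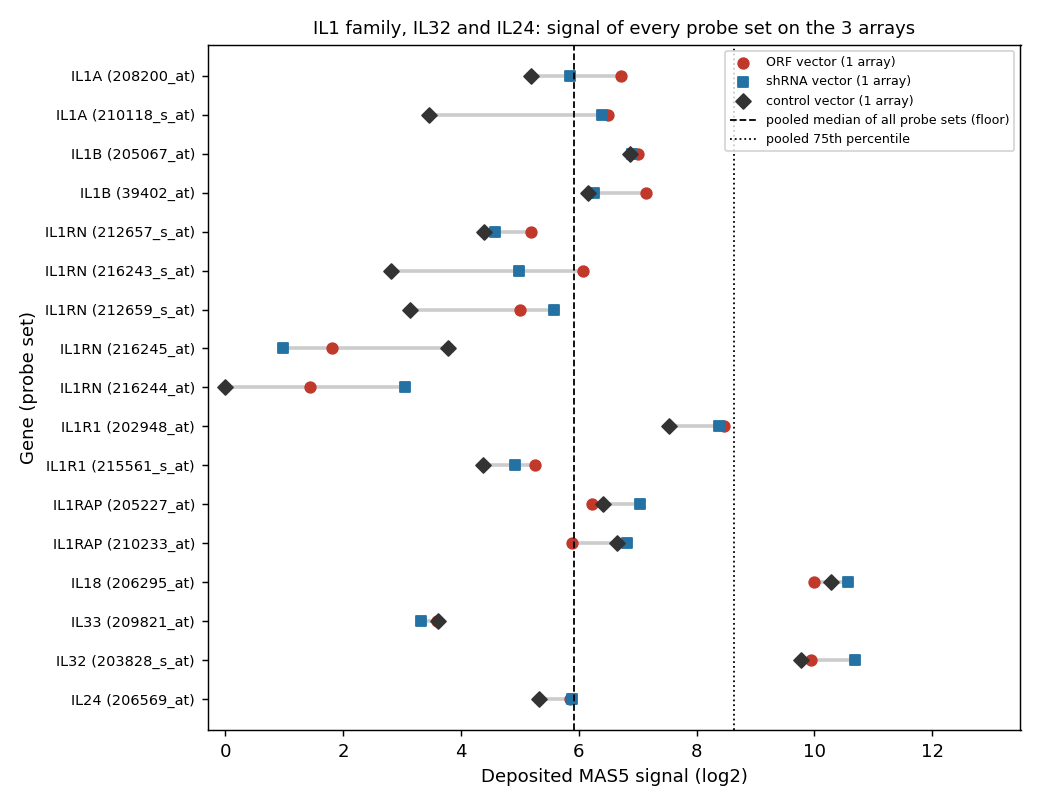
Deposited log2 signal (horizontal axis) of each of the 17 probe sets (vertical axis) on the arrays labelled ORF (circles), shRNA (squares) and control (diamonds), 1 array each, with the grey bar spanning the 3 readings. IL18 and IL32 lie to the right of the 75th percentile (8.63, dotted), and the IL1RN, IL33 and IL24 probe sets lie at or to the left of the floor (5.93, dashed) except for 216243_s_at on the array labelled ORF.

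HSPB1, which encodes Hsp27, read 13.11 on the array labelled ORF, 13.03 on that labelled shRNA and 13.25 on that labelled control, so the ORF label did not come with the higher HSPB1 signal, and all directions below rest on the labels alone. Whether this probe set reads the transcript of the ORF vector was not tested, so the HSPB1 signal may not bear on that vector. The label HepG2 did not match its defining genes either: of 11 hepatocyte markers measured, 2 had a mean above the floor and 0 reached the 75th percentile. Of 11 leukocyte and myeloid markers 0 had a mean above the floor and 0 were listed at 0, and their summed linear signal was 363 on the array labelled ORF, 288 on shRNA and 309 on control. Of 7 endothelial markers 2 were above it, PECAM1 and CDH5, with summed signals of 227, 349 and 248 in the same order. Of 7 keratinocyte and squamous markers 1 was, KRT10 (summed signals 4350, 5101 and 4726), and of 4 mast cell markers 1 was, CPA3 (4787, 6779 and 6851). Of 10 fibroblast and stellate cell markers 6 were, led by LUM, DCN and COL1A1 (10596, 13174 and 12705). Only these 3 reached the 75th percentile, and COL1A2, PDGFRB, PDGFRA and THY1 had means below the floor. Most of the summed signal was LUM, at 13.03, 13.35 and 13.30 on the log2 scale. The part of such cells in the differences below was not tested, and in bulk RNA fewer cells of a type and less RNA per cell cannot be told apart.

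IL32, a cytokine known to induce other inflammatory cytokines, was the member that stood highest above its noise on the array labelled shRNA. Its only probe set, 203828_s_at, read 9.93 on the array labelled ORF, 10.69 on shRNA and 9.77 on control, or 979, 1657 and 874 as linear signal. The shRNA array was thus apart from the other two, which lay close together. The log2 ratio was 0.92 for shRNA against control, a 1.90-fold higher signal, and −0.76 for ORF against shRNA, a 1.69-fold lower one. For ORF against control it was 0.16. A technical noise SD, taken from same-gene pairs of probe sets at like signal and covering no variation between cultures, was 0.19, 0.15 and 0.15 for these ratios.

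The stretch before the first annotated start of IL32 is shown because IL32 was the bright member with a difference past 1.5-fold and because this stretch alone among the 16 windows available for the members held the sequence that NF-kB proteins are known to bind. It is the 250 bases up to that start in RefSeq (GRCh38.p14, chr16:3065153-3065402, plus strand), 5′ to 3′, with motif matches in capitals.
IL32: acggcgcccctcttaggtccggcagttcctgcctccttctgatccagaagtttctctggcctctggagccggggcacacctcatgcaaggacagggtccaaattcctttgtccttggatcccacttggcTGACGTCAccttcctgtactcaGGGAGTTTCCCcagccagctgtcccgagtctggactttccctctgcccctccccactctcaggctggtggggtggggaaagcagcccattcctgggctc
The first run of capitals is the cyclic AMP response element TGACGTCA, which begins 121 bases before the start. The second holds 2 overlapping matches to the NF-kB consensus, which begin 99 and 98 bases before it. Of all 35116 RefSeq windows of this length, 9.96% held the NF-kB consensus and 1.65% the response element on either strand. The window before the other annotated start of IL32 held neither. A match is a description of the letters, not of binding.

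IL18, a ligand that is known to prompt interferon gamma release, had opposite small differences on the arrays labelled ORF and shRNA. Its probe set 206295_at read 9.99 on the array labelled ORF, 10.57 on shRNA and 10.28 on control, so that control lay midway. Relative to control, the array labelled ORF had a log2 ratio of −0.29 and that labelled shRNA one of 0.29, with noise SDs of 0.15 and 0.19. The ratio of the array labelled ORF to that labelled shRNA was −0.58 (noise SD 0.15). This last value lay just short of the 1.5-fold threshold in the main scaling and just past it after quantile normalization (−0.59), loess centring (−0.59) and equal medians (−0.61). ORF against shRNA was the comparison in which both bright members, IL18 and IL32, were lower on the array labelled ORF.

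IL1R1, the signalling receptor for both interleukin 1 ligands, was higher than control on both Hsp27 vector arrays. Probe set 202948_at read 8.47 on the array labelled ORF, 8.38 on shRNA and 7.54 on control, or 355, 334 and 186 as linear signal, so control was the low array. Relative to control, the log2 ratio was 0.93 on the array labelled ORF (1.91-fold, noise SD 0.26) and 0.84 on that labelled shRNA (1.79-fold, noise SD 0.31), both resting on the same control array. ORF against shRNA gave 0.09 (noise SD 0.26). The other IL1R1 probe set, 215561_s_at, was below the floor throughout at 5.26, 4.92 and 4.38, in the same order of arrays.

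IL1RAP, the accessory chain that completes the receptor, was lowest on the array labelled ORF. Probe set 205227_at read 6.23 on the array labelled ORF, 7.04 on shRNA and 6.41 on control. Probe set 210233_at read 5.89, 6.81 and 6.64 in that order, the first being below the floor. Against shRNA, the ORF array was lower by both probe sets, with log2 ratios of −0.81 and −0.88 (noise SD 0.43 each). The probe sets differed in where control lay: shRNA against control was 0.63 by 205227_at and 0.17 by 210233_at (noise SD 0.43 each). In the same order, ORF against control was −0.18 and −0.71 (noise SD 0.42 each). The receptor chain and its accessory chain therefore did not differ alike: IL1R1 was high on both Hsp27 vector arrays, IL1RAP on the shRNA array and, by 210233_at, on the control array.

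IL1A, which is active as the uncut precursor and is known as an alarm signal of damaged epithelium, was read lowest on the control array by both of its probe sets. Probe set 208200_at read 6.72 on the array labelled ORF, 5.85 on shRNA and 5.18 on control, so only the ORF array was above the floor. Probe set 210118_s_at read 6.50, 6.40 and 3.47, and there both Hsp27 vector arrays were above it. With control at the floor, ORF against control gave log2 ratios of 0.80 and 0.57, and without a floor 1.54 and 3.03. For shRNA against control 210118_s_at gave 0.48, or 2.94 without a floor, and 208200_at has no ratio because both arrays were below the floor. The size of the IL1A difference is therefore set by the floor, and no noise SD was estimated for its probe sets, whose means lay below it. The probe sets disagreed on ORF against shRNA, at 0.80 and 0.10.

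The stretch before the first annotated start of IL1A is shown because both IL1A probe sets were below the floor on control and above it on the array labelled ORF, and because it holds the AP-1 sequence TGANTCA, in capitals, 12 bases before the start. It is given as for IL32 (RefSeq, GRCh38.p14, chr2:112784494-112784743, minus strand), 5′ to 3′.
IL1A: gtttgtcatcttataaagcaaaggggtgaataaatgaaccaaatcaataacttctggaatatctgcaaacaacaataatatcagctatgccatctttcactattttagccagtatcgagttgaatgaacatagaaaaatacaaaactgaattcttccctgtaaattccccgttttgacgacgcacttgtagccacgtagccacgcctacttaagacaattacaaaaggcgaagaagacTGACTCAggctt
AP-1 is the Fos and Jun transcription factor family. On either strand, 6.57% of all RefSeq windows of this length held TGANTCA. Among the members, 3 of 16 windows held it, both windows of IL1A and 1 of the 3 of IL1RN. The windows of IL1A overlap by 157 bases and share 1 match, so that they hold 2 distinct matches. The windows of IL1B, IL1R1, IL1RAP, IL24 and IL33 held none of the 3 motifs searched. Windows were found for 8 of 9 members, the other being IL18.

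IL1B, the ligand that caspase 1 cuts, had probe sets that disagreed. Probe set 205067_at read 7.01 on the array labelled ORF, 6.91 on shRNA and 6.87 on control, close together. Probe set 39402_at read 7.14, 6.25 and 6.16, with the ORF array apart. ORF against control was therefore 0.14 by the first and 0.98 (1.97-fold) by the second (noise SD 0.42 each), and ORF against shRNA 0.10 and 0.88 (noise SD 0.41 and 0.43). For shRNA against control both were small, at 0.04 and 0.10.

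IL1RN, the antagonist, stayed near or below the floor. Of its 5 probe sets, 216243_s_at alone exceeded it, on 1 array: 6.08 on the array labelled ORF, 4.99 on shRNA and 2.82 on control. Probe set 212657_s_at read 5.20, 4.58 and 4.38, and 212659_s_at read 4.995, 5.57 and 3.14. These 3 had control lowest, as had 216244_at (1.43, 3.05 and listed at 0 on control), while 216245_at had control highest (1.80, 0.98 and 3.78). With 1 reading of 15 above the floor, the only ratio is 0.15 for ORF, against control and against shRNA alike.

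IL33, an alarm cytokine stored in the nucleus, was low throughout at 3.60 on the array labelled ORF, 3.31 on shRNA and 3.62 on control. IL24, which acts on receptors shared with IL20, read 5.85, 5.88 and 5.33 and came within 0.1 of the floor on the Hsp27 vector arrays only. Neither has a ratio, and these arrays show no level for them above the floor.

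**Figure D2:**
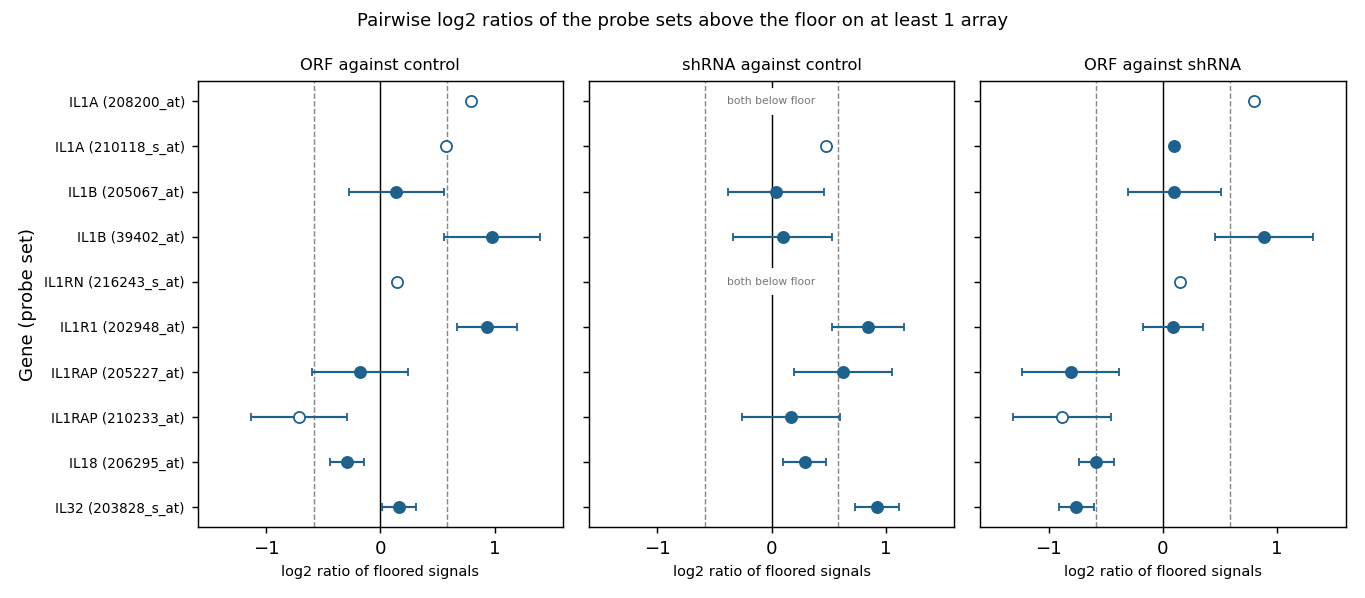
Log2 ratio of floored signals (horizontal axis) for the 10 probe sets above the floor on at least 1 array (vertical axis), 1 panel per comparison. Bars give the technical noise SD between probe sets, where one was estimated, open circles have 1 array at the floor, and dashed lines mark 1.5-fold. IL1R1 is past the line in both comparisons with control, IL32 in the 2 comparisons with the array labelled shRNA, and both IL1RAP probe sets only for ORF against shRNA.

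Across the members, ORF against control gave 3 of 10 measured probe sets at least 1.5-fold higher (IL1A 208200_at, IL1B 39402_at and IL1R1 202948_at) and 1 lower (IL1RAP 210233_at). Over all 23720 probe sets measured in that comparison 3.73% were called higher and 3.14% lower. The 4 probe sets called were all below the 75th percentile in mean signal, where 6.54% and 5.63% of 11643 were called, against 1.03% and 0.729% above it. The median log2 ratio of the members was 0.16, that of all measured probe sets 0.007. Both IL1A probe sets, IL1RN 216243_s_at and IL1RAP 210233_at were measured with 1 array below the floor, which fixed the sign of their ratios. Counting each gene by its probe set of highest mean signal, 2 of 6 genes were higher and 0 lower. Of all 12374 genes measured, 3.11% were called higher and 2.89% lower.

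For shRNA against control, 3 of 8 measured probe sets were at least 1.5-fold higher (IL32, IL1R1 202948_at and IL1RAP 205227_at) and 0 lower, where 4.51% and 3.64% of all 23815 were called. IL32 was among the bright probe sets, of which 1.68% were called higher and 1.33% lower, and the other 2 were among the dimmer ones, with 7.43% and 6.01%. All 8 ratios were above 0, with a median of 0.38 against 0.001 over all. IL1A 210118_s_at was measured only through the shRNA array, control being below the floor, so its ratio could not be negative. By gene, 3 of 5 were higher and 0 lower, where 3.66% and 3.36% of all 12444 genes were called. IL1A was not among the 5, as its probe set of highest mean signal was below the floor on both arrays. Its other probe set, at 0.48, was not called.

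For ORF against shRNA, 2 of 10 were at least 1.5-fold higher (IL1A 208200_at and IL1B 39402_at) and 3 lower (both IL1RAP probe sets and IL32), where 3.2% and 3.23% of all 23775 were called. Among bright probe sets 1% were called higher and 0.72% lower, and among dimmer ones 5.46% and 5.81%. The median was 0.09 against 0.008 over all. IL1A 208200_at, IL1RN 216243_s_at and IL1RAP 210233_at were measured with 1 array below the floor, which fixed the sign of their ratios. IL18, at −0.58, lay on the side of the lower genes, and the other IL1A and IL1B probe sets were at 0.10 each, so the ligands did not share a direction. By gene, 1 of 6 was higher and 2 were lower, where 2.69% and 2.74% of all 12394 genes were called. As the members were chosen with results of these arrays known, these counts are descriptions.

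**Figure D3:**
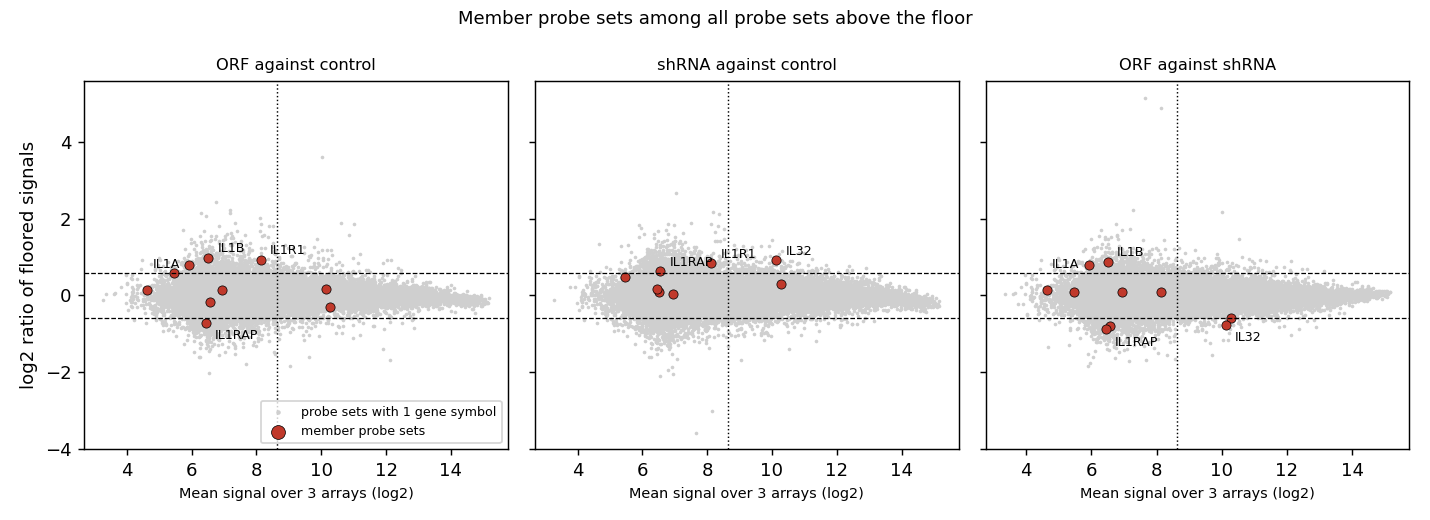
Log2 ratio of floored signals (vertical axis) against mean log2 signal over the 3 arrays (horizontal axis) for all measured probe sets with 1 gene symbol (grey) and the members (red), 1 panel per comparison, with names for members past 1.5-fold (dashed). The grey cloud is wide left of the 75th percentile (8.63, dotted), where most called members lie, and narrow to the right, where IL32 lies.

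The gene whose pair of ratios to control was nearest to that of IL32 (0.16 and 0.92), among 7848 other genes with a mean at or above the 75th percentile, was MTSS2 (0.13 and 1.03, a distance of 0.11 on the log2 scale). COL1A1 (0.15 and 0.80), HDAC9 (0.14 and 1.04), HDLBP (0.21 and 0.79) and MAGOHB (0.22 and 0.79) followed. COL1A1 is a fibroblast marker listed above, but the other markers of that list did not share its ratio: DCN was at −0.90 and LUM at 0.05 for shRNA against control, and the list median was −0.04. The likeness rests on 2 ratios that share the control array. IL32 was the only member bright enough for this ranking with a 1.5-fold ratio to control.

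Around the members, the genes of receptor signalling were the best measured and differed little. All 15 genes of this list on the array were above the floor. Their median log2 ratios were 0.03 for ORF against control, −0.005 for shRNA against control and 0.05 for ORF against shRNA. IRAK3, an IRAK family member known as a brake on this pathway, was the only 1 past 1.5-fold above control on the Hsp27 vector arrays, at 9.002, 8.94 and 8.23, or 0.78 and 0.71 against control (noise SD 0.24 and 0.27). MAP3K3 was the only 1 lower, at −0.60 for shRNA against control (noise SD 0.25). With the median over probe sets in place of the brightest probe set, the list had 0 higher for ORF against control and 0 lower for shRNA against control, which ended both of those calls. IRAK2 had 0.50 for ORF against control, and SIGIRR, a receptor known to dampen the family's signalling, 0.31. Over all genes, 3.11% were called higher and 2.89% lower for ORF against control, 3.66% and 3.36% for shRNA against control, and 2.69% and 2.74% for ORF against shRNA.

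The other ligands, receptors and decoys of the family were mostly below the floor. None of the 6 other ligands and antagonists passed 1.5-fold in any comparison, and 1 of them, IL1F10, had a mean above the floor. Of 9 other receptors and decoys 4 were measured in each comparison, and IL1RL1, the IL33 receptor, was the only 1 called: 6.72 on the array labelled ORF, 6.04 on shRNA and 6.02 on control, or 0.70 and 0.69 for ORF against the others (noise SD 0.40 each). These are the values of the brightest of its 3 probe sets above the floor, and with the median over probe sets the list had 0 calls in both comparisons. IL18BP, the soluble trap for IL18, was at −0.36 and −0.38 against control, within its noise SD of 0.40 and 0.42.

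Of 19 inflammasome and processing genes, 14 were measured for ORF against control, 13 for shRNA against control and 14 for ORF against shRNA, with medians of −0.03, 0.02 and 0.005. AIM2, a sensor of cytosolic DNA that recruits caspase 1, stood apart from the rest: 7.82 on the array labelled ORF, 7.61 on shRNA and 6.26 on control, or 1.56 (2.95-fold) and 1.35 (2.55-fold) against control (noise SD 0.36 and 0.38). Like IL1R1 and IRAK3, AIM2 was low on the control array, and AIM2 has 1 probe set. CASP1 itself, the protease for IL1B and IL18, was bright and nearly level at 10.45, 10.63 and 10.39. MEFV, the pyrin gene, was lower on the array labelled ORF, at −0.87 against control and −0.98 against shRNA (noise SD 0.40 each). Its ORF reading was below the floor, and it has a single _x_at probe set, so that the call is absent without such probe sets. GSDMD, whose cut product forms the pore that releases IL1B, was also lower on the array labelled ORF. It was at −0.60 against shRNA (noise SD 0.37), just past 1.5-fold. PYCARD and NLRP3, the adaptor and a sensor, were below the floor on every array.

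Of the 7 genes of the IL20 subfamily and its receptors 3 were measured. IL20RB, a receptor chain for IL24, read 7.93, 7.88 and 7.34, or 0.59 and 0.54 against control (noise SD 0.29 and 0.33). IL22RA1, another chain used by IL24, was lower on the array labelled ORF than on shRNA by −0.60 with the ORF array at the floor (noise SD 0.40). Both lay at the threshold: after quantile normalization or loess centring the list had 0 higher for ORF against control and 0 lower for ORF against shRNA, and with equal medians 0 higher for ORF against control.

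Genes that textbooks name as targets of IL1 were the list with most calls. Of 16 measured, 8 were at least 1.5-fold higher and 1 lower for ORF against control (median 0.67), 5 and 0 for shRNA against control (median 0.30), and 6 and 1 for ORF against shRNA (median 0.44). The gene medians over all measured genes were −0.002, −0.012 and 0.010. Over all genes, 3.11% were called higher and 2.89% lower for ORF against control. The shares were 3.66% and 3.36% for shRNA against control, and 2.69% and 2.74% for ORF against shRNA. By size, LCN2 (3.61), CXCL8 (2.43, with control below the floor, so that the floor sets this value), PTGS2 (1.89) and CXCL1 (1.604) led for ORF against control. These counts depend on the processing: for ORF against control, leaving out _x_at and _s_at probe sets gave 4 higher and 0 lower with a median of 1.58, and a floor at the 75th percentile 4 and 0 with a median of 0.36. The median for ORF against shRNA was 0.14 with no floor and 0.17 without those probe sets. The list was written with earlier results of these arrays known and overlaps genes already seen to differ, so it is not independent evidence of a direction. CCL2, a monocyte attractant, was the 1 lower gene, at 6.03 on the array labelled ORF, 7.29 on shRNA and 7.18 on control. For shRNA against control, LCN2 (1.44), IL6 (1.41), PTGS2 (0.90) and CXCL1 (0.72) led. LCN2, PTGS2 and CXCL1 were higher still on the array labelled ORF (2.17, 0.99 and 0.88 against shRNA), and IL6 was at 0.17 (noise SD 0.23).

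**Figure D4:**
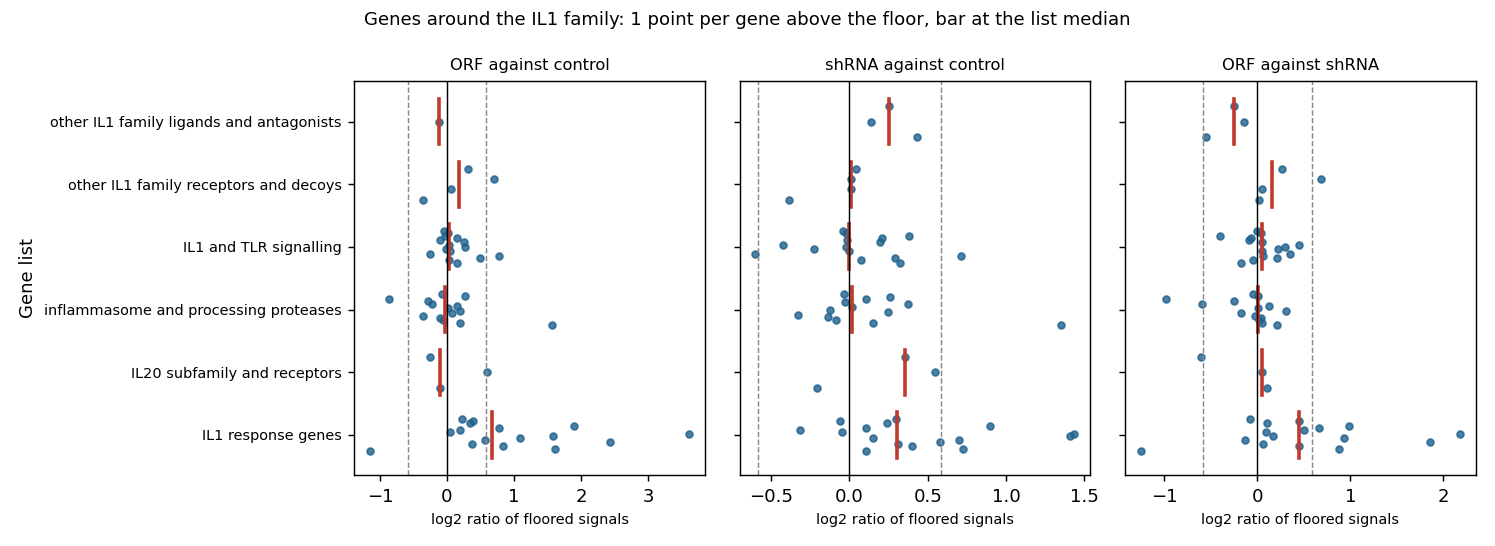
Log2 ratio of floored signals (horizontal axis) for each measured gene of 6 lists around the members (vertical axis, 1 point per gene), with the list median as a red bar and 1.5-fold as dashed lines, 1 panel per comparison, each with its own horizontal scale. Most signalling and inflammasome genes gather around 0. AIM2 lies near 1.5 in the panels against control, and IRAK3, MAP3K3, MEFV and GSDMD also pass a dashed line in at least 1 panel. The IL1 response genes spread mostly to the right, up to 3.61 for LCN2.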

How the data were processed

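The authors deposited 1 log2 signal per probe set for 54675 probe sets on 3 arrays, 1 per group, grouped by the transfection label. The submitters' processing notes name MAS5; no version, target value or presence call is given in the sources used here. The 2% trimmed mean of the linear signal was 500.1 on each array, so scaling to an equal trimmed mean moved nothing visible. Symbols came from GEO's platform annotation (41097 probe sets with 1 symbol, 1801 with several, 11777 with none; 0 of those with several named a member) and were matched on gene identifier to RefSeq, GRCh38.p14 (41043 matched, 0 updated). Signals under the pooled median were set to it, then log2 ratios were taken in 3 comparisons, which understates differences of dim genes. A gene is represented by its probe set of highest mean signal. The noise SD is the SD of the difference between log2 ratios of 5483 pairs of probe sets of 1 gene that differ by less than 1 in mean log2 signal, divided by the square root of 2, in 20 bins of signal. The number of arrays limits precision, and no p-value was computed. At most 4 genes per list and comparison are named, those of largest ratio, apart from lone genes behind a count, CASP1, PYCARD and NLRP3, which were named for their role after their values were seen, and the fibroblast markers beside COL1A1. Members and lists were chosen with earlier results of these data known. Alternatives were quantile normalization, loess centring, equal medians, a floor at the 75th percentile, no floor, a 2-fold threshold, the median over probe sets, and leaving out probe sets ending in _x_at or _s_at. The procedure was tested on simulated data, with fold changes placed only in genes with a mean at or above the 75th percentile. Dim and floored ratios, which most members have, were not covered by that test. Python 3.11.15, pandas 2.3.3, scipy 1.17.1 and statsmodels 0.14.6 were used.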

Additional observations from a re-analysis of the deposited data

How the results depend on the processing

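Quantile normalization, loess centring, equal medians and leaving out _x_at and _s_at probe sets kept each count of member probe sets past 1.5-fold within 1.5 times. Without a floor, ORF against control had 9 higher and 2 lower, shRNA against control 8 and 1, and 5 were higher for ORF against shRNA, as readings below the floor then count. With the floor at the 75th percentile these became 0 and 0 for ORF against control, 1 higher (IL32) for shRNA against control, and 0 higher and 1 lower for ORF against shRNA, since few members are that bright. At the 2-fold threshold, which kept the floor at the pooled median, no floored member ratio passed and each count was 0. For members with an array below the floor this rests on the floor. Without a floor, the IL1A probe sets were at 1.54 and 3.03 for ORF against control, past 2-fold. Of 93 ratios under alternatives of the member genes with a noise SD, 92 moved by less than it. IL1A, which has none, for ORF against control ranged from 0.69 to 1.54. The exception was IL1B, at 0.56 for ORF against control with the median over probe sets. The IL1R1 ratios to control ranged from 0.83 to 0.93, and that of IL32 for shRNA was 0.92 under each alternative but the one without _x_at and _s_at probe sets, in which IL32 has no value. Of 282 list counts 61 moved by over 1.5 times, and of 123 list medians 22 moved by 0.1 or more. IL1RAP for shRNA against control was 0.40 with the median over probe sets. No called member ratio changed sign. Dim signals limit IL1A, IL1RN, IL33 and IL24, and also IL1B and IL1RAP, whose noise SDs were 0.41 to 0.43. No paired analysis was possible because each group has 1 array.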

Other observations

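Beyond the members, 73 genes taken by symbol as interleukins or their receptors were on the array and 26 had a mean above the floor. The symbols also took in IL18BP, a soluble trap, and IL4I1, which is neither an interleukin nor a receptor. For ORF against control 6 of 35 measured were at least 1.5-fold higher and 0 lower, for shRNA against control 5 of 36 and 1, and for ORF against shRNA 1 of 35 and 3. Over all genes 3.11% were called higher and 2.89% lower in the first comparison, 3.66% and 3.36% in the second and 2.69% and 2.74% in the third, and most of these interleukin genes are dim, where calls are more frequent. The genes were chosen by symbol after the data were seen, and IL6, IL1RL1, IL20RB and IL22RA1, given above, are among those called. IL11, a cytokine of the IL6 family, read 9.68 on the array labelled ORF, 9.29 on shRNA and 8.45 on control (1.23 and 0.84 against control, noise SD 0.19 and 0.25). IL11RA, its receptor, was at 0.71 for shRNA against control (noise SD 0.42), and IL34, whose mean is below the floor, at −0.77. IL7, a growth factor for lymphocytes, was at 7.37 on the array labelled ORF, 7.33 on shRNA and 6.57 on control (0.81 and 0.76 against control, noise SD 0.40 and 0.42). IL4R, the receptor chain for IL4 and IL13, read 8.57, 8.02 and 7.93 and differed for the ORF array (0.64 against control, noise SD 0.26). IL2RB read 6.81, 7.69 and 7.37 and was lowest on the array labelled ORF, at −0.87 against shRNA (noise SD 0.35). IL31RA, the IL31 receptor, read 6.87, 7.94 and 7.29, so that the shRNA array was 0.65 above control and the ORF array at −1.07 against shRNA, with noise SDs of 0.38 and 0.35.

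Among 30 genes within 2 protein-coding genes of a member in RefSeq order, 18 exceeded the floor somewhere. MAP4K4, a kinase gene 2 steps from IL1R1, was like IL1R1 low on the control array, at 10.01, 10.17 and 9.17. Its ratios were 0.85 for ORF and 1.004 for shRNA against control. Of its 5 probe sets, 222548_s_at had the other sign for ORF against control (−0.40). IL1R2, the decoy receptor gene between them, was below the floor at 4.37, 5.04 and 3.74, as was IL1RL2 on the other side of IL1R1, at 4.597, 2.83 and 5.48. These genes were picked after their values were seen, and the share of such likeness among other neighbours was not computed.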
